A study of Mus musculus with 8 samples.

Results

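The insulin receptor signalling components described here are 9 genes, Insr, Irs1, Irs2, Pik3r1, Akt1, Akt2, Foxo1, Gsk3a and Gsk3b, which lead from the receptor at the hepatocyte surface to the kinases and the transcription factor it controls. Every probe whose annotated gene symbol was on this list was taken, which gave 12 of the 25697 probes on the array and 9 of its 16593 gene symbols. The rule used names and no measured value. Liver RNA came from 4 TgC6hp55 and 4 WT mice, all males of the C57BL/6J strain at 21 weeks of age. Each liver was measured on 1 array of the Illumina Mouse Ref-8 v2.0 BeadChip type. TgC6hp55 mice carry the coding sequence of human TNFR1, a receptor for TNF, under the CollagenVI(a1) promoter, which drives expression in mesenchymal cells, and the construct ends in a human growth hormone (hGH) minigene. WT mice carry neither, and no mouse was treated. The construct was introduced in a pair of founders, the labels do not say from which of them these livers descend, and in the line studied most the insertion interrupts Icoslg and Dnmt3l. The feeding state of the mice at collection is not given in the sources used here. The comparison asks which liver transcripts differ between the genotypes in a line whose glucose handling and insulin sensitivity were also examined.

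Insulin binding activates the tyrosine kinase of the insulin receptor, which phosphorylates the docking proteins IRS1 and IRS2. These recruit phosphatidylinositol 3-kinase (PI3K) through its regulatory subunits, and the lipid that PI3K makes brings AKT to the membrane, where it is activated. In the liver AKT phosphorylates and inhibits the GSK3 kinases, which releases glycogen synthase, and it keeps FOXO1 out of the nucleus, which lowers transcription of gluconeogenic genes. Most of this control acts on proteins already made, by phosphorylation, and an mRNA array does not measure it. Irs2 is an exception that is itself regulated at the transcript level, since FOXO1 raises it in fasting and insulin lowers it.

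The promoters of the docking protein genes are shown because Irs2 is a transcript that FOXO1 is known to act on, and because both hold the core of the insulin response element, TGTTTTG (reverse complement CAAAACA), printed in capitals. They were read from RefSeq on GRCm38.p6, 5′ to 3′ along the gene, and end at the last base before the annotated start. A stretch of 60 bases from G6pc and from Igfbp1, textbook targets of FOXO1 in liver, is given beside them with the same element in capitals.
Irs2 (chr8:11008930-11009179, minus strand): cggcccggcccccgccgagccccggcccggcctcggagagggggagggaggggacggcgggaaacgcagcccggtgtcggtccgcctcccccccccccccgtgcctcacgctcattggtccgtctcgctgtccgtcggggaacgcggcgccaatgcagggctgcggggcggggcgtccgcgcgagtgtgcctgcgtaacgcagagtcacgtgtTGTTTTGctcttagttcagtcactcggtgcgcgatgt
Irs1 (chr1:82291440-82291689, minus strand): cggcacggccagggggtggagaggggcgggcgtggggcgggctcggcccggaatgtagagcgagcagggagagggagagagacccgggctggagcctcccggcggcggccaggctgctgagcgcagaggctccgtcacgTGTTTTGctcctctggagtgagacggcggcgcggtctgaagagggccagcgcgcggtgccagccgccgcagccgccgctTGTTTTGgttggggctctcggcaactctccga
G6pc (chr11:101367516-101367575, plus strand): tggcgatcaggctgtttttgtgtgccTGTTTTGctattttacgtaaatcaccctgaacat
Igfbp1 (chr11:7197653-7197712, plus strand): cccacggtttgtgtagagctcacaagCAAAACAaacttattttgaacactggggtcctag
The first base of the element lay 37 bases upstream of the Irs2 start, 111 and 32 bases upstream of the Irs1 start, 174 bases upstream of the G6pc start and 108 bases upstream of the Igfbp1 start, where it runs on the opposite strand. An E-box, CACGTG, which reads the same on both strands, began 44 bases upstream of the Irs2 start and 115 bases upstream of the Irs1 start, and in Irs1 its last bases are the first bases of the element at 111. RefSeq promoters were found for 8 of the 9 genes, 13 promoters in all, each from 250 bases before to 50 bases after the start. On either strand, TGTTTTG was in 2 of these 13 promoters and in 6.28% of all 32851 promoters of the same length. The FOXO consensus TGTTTAC (reverse complement GTAAACA) was in 1 of the 13, a promoter of Akt1, where it began 161 bases upstream, and in 3.65% of all. CACGTG was in 2 of the 13 and in 7.15% of all. Of the listed FOXO1 targets outside the components, G6pc and Igfbp1 held TGTTTTG in this window. The promoters of Pck1, Ppargc1a, Pdk4 and Sesn3, on the same list, held neither TGTTTTG nor TGTTTAC. These matches describe the letters in each window and say nothing about binding.

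A probe counted as detected on an array where its detection p, which sets it against the negative control beads of that array, was under 0.05, and it was tested where it was detected on at least 4 of the 8 arrays. Of the 12 probes, 5 were tested, all of them detected on 8 of 8 arrays, and they stand for Irs2, Pik3r1 (2 probes), Foxo1 and Gsk3b. The other 7 probes, which include every probe of Insr, Irs1, Akt1, Akt2 and Gsk3a, were at or near the array background. Between TgC6hp55 and WT livers 0 of the 5 tested probes passed an adjusted p of 0.05 in limma, and 0 had an unadjusted p under 0.05, where 10.4% of all 11100 tested probes passed the adjusted threshold and 23.5% the unadjusted one. A plain unpaired test of each probe on the same values also gave 0 of the 5 at either threshold, where it called 678 of the 11100 probes after adjustment and 2455 before. In none of the 5 did the groups separate, against 16.1% of all tested probes in which they did. The median difference of the 5 probes was -0.07 on the log2 scale, and that of all tested probes was -0.02. The 95% intervals of the 5 differences together ran from -0.47 to 0.36 on the log2 scale. That is from 0.724 to 1.28 times the WT level. Each interval included 0, and for each probe a change within its own interval was not excluded with 4 livers per group.

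Irs2, the docking protein that carries much of the insulin signal in hepatocytes, had log2 signals of 6.87, 6.25, 6.34 and 6.98 in TgC6hp55 livers 1 to 4, against 6.91, 6.63, 6.54 and 6.78 in WT livers 1 to 4. TgC6hp55 livers held both the lowest and the highest value of the 8, and the WT values lay between them. The group means were 6.61 ± 0.37 in TgC6hp55 and 6.71 ± 0.16 in WT livers (SD, n = 4 each). The difference was -0.10 (standard error 0.17, 95% interval -0.47 to 0.26, limma adjusted p = 0.771). Without TgC6hp55 replicate 2 it was 0.02. For this transcript, whose promoter is printed above, the difference between the genotypes was smaller than the spread between livers of 1 genotype.

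Pik3r1 encodes the p85 alpha regulatory subunit of PI3K and its shorter forms, and its 3 probes are annotated to 2 RefSeq transcripts. Probe ILMN_3114641 gave log2 signals of 7.02, 7.12, 6.96 and 7.03 in TgC6hp55 livers 1 to 4, against 7.22, 7.35, 7.23 and 6.54 in WT livers 1 to 4. Probe ILMN_2473531 gave 6.81, 6.67, 6.67 and 6.88 in TgC6hp55 livers, against 7.01, 7.10, 6.97 and 6.23 in WT livers. On both probes WT replicate 4 was the lowest of the 8 livers and the other 3 WT livers were the highest, with the 4 TgC6hp55 livers close together between them. The spread was 7.03 ± 0.067 in TgC6hp55 and 7.09 ± 0.37 in WT livers for ILMN_3114641, and 6.76 ± 0.10 in TgC6hp55 and 6.83 ± 0.40 in WT livers for ILMN_2473531 (SD, n = 4 each). Differences were -0.05 (95% interval -0.40 to 0.29, limma adjusted p = 0.888) and -0.07 (95% interval -0.44 to 0.30, limma adjusted p = 0.850). Without WT replicate 4 they were -0.23 (limma adjusted p = 0.229) and -0.27 (limma adjusted p = 0.182), and without WT replicate 2 they were 0.04 and 0.02. The array of WT replicate 4 had a mean deposited intensity of 167, with 177 to 179 on the other 3 WT arrays, and its part in the low Pik3r1 values was not tested. The third probe, ILMN_3040050, was detected on 0 of 8 arrays, although it is annotated to the same transcript as ILMN_3114641, and therefore carries no information on the gene here.

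**Figure D1:**
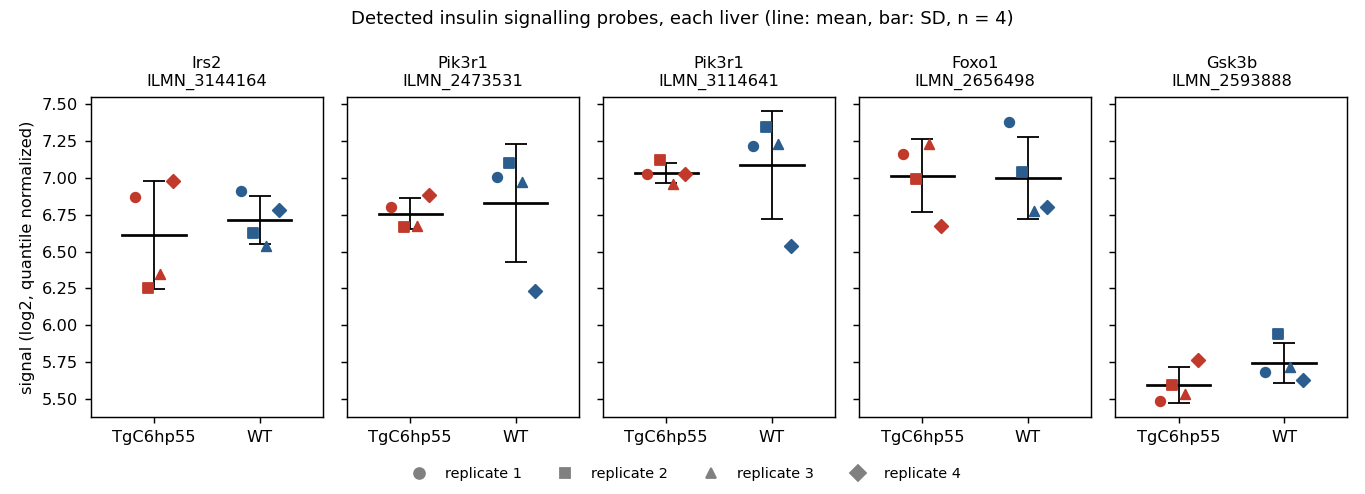
Log2 quantile normalized signal (vertical axis) of the 5 detected probes in each liver, TgC6hp55 left of WT, with a symbol for each replicate number, a line at the mean and a bar for the SD (n = 4 per group). The groups overlap on every probe, and on both Pik3r1 probes WT replicate 4 lies below all other livers, at 6.23 and 6.54.

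Foxo1, the forkhead transcription factor that AKT excludes from the nucleus, had log2 signals of 7.17, 6.997, 7.23 and 6.67 in TgC6hp55 livers 1 to 4, against 7.38, 7.04, 6.78 and 6.81 in WT livers 1 to 4. The ranges of the groups almost coincided. Means were 7.02 ± 0.25 in TgC6hp55 and 7.001 ± 0.28 in WT livers (SD, n = 4 each), and the difference of 0.02 (standard error 0.16, 95% interval -0.33 to 0.36, limma adjusted p = 0.970) was the smallest in size of the 5. Its sign turned without TgC6hp55 replicate 1 (-0.04), TgC6hp55 replicate 3 (-0.06), WT replicate 3 (-0.06) or WT replicate 4 (-0.05), and with median scaling of the arrays (-0.05).

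Gsk3b, a kinase that holds glycogen synthase inactive until AKT phosphorylates it, was the dimmest of the 4 tested genes, with deposited intensities of 23 to 46 in TgC6hp55 and 32 to 46 in WT livers. Its log2 signals were 5.48, 5.60, 5.54 and 5.77 in TgC6hp55 livers 1 to 4, against 5.68, 5.94, 5.71 and 5.63 in WT livers 1 to 4. The 3 lowest values of the 8 were all from TgC6hp55 livers, but TgC6hp55 replicate 4 was above 3 of the WT livers. Means were 5.60 ± 0.12 in TgC6hp55 and 5.74 ± 0.14 in WT livers (SD, n = 4 each). The difference was -0.15 (standard error 0.11, 95% interval -0.39 to 0.09, limma adjusted p = 0.465), the smallest p of the 5 (0.203 in limma before adjustment), and it kept its sign in all 18 alternatives run for it, from -0.21 to -0.08. The genes whose signal followed Gsk3b most closely over the 8 livers were Hmgxb4 (Pearson r = 0.934), Pofut1 (0.929) and Crem (0.926), which were picked as the highest of all tested probes and share its arrays and normalization.

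**Figure D2:**
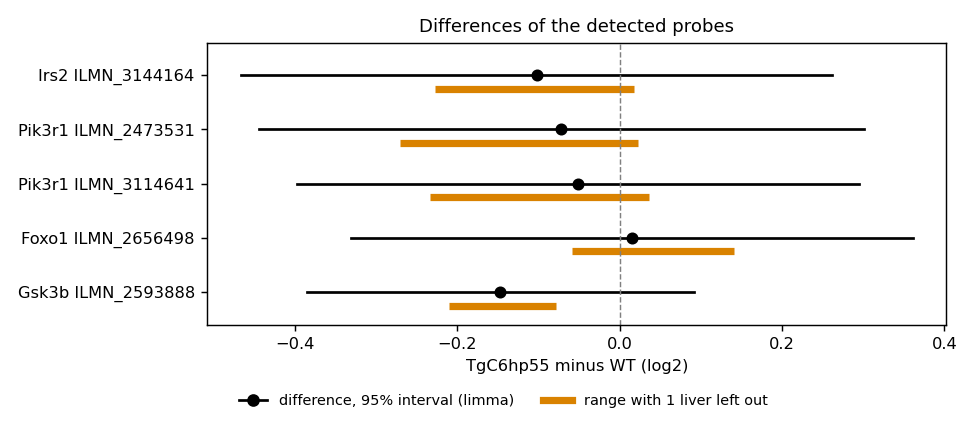
Difference TgC6hp55 minus WT on the log2 scale (horizontal axis) of the 5 detected probes, with the 95% interval from limma as a black line and, below it, the range of the difference when each of the 8 livers was left out in turn as an orange bar. Every 95% interval includes 0, and the orange bar of Gsk3b, from -0.21 to -0.08, is the only bar that does not.

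The 5 probes also differed in how much they varied between livers of 1 genotype. The pooled within-group SD was lowest for Gsk3b, at 0.13, and highest for Pik3r1 probe ILMN_2473531, at 0.29, while the median was 0.180 over all tested probes and 0.188 over the 6152 with a mean log2 signal between 5 and 8. The 2 detected Pik3r1 probes followed each other over the 8 livers with Pearson r = 0.945, a value given as a description, since both lie on the same arrays and share WT replicate 4 as their lowest point.

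Insr encodes the receptor itself. Its probe, ILMN_2628026, was detected on 1 of 4 TgC6hp55 arrays and 0 of 4 WT arrays. The deposited intensities, from which a background had been subtracted and which therefore can be negative, were 7, 8, 5 and 5 in TgC6hp55 livers 1 to 4, against 2, -3, 1 and -2 in WT livers 1 to 4. All 4 TgC6hp55 livers were above all 4 WT livers, with log2 signals of 4.52 ± 0.084 in TgC6hp55 and 4.27 ± 0.062 in WT livers (SD, n = 4 each). Among the 14597 probes that missed the detection filter, the TgC6hp55 livers were all above the WT livers in 1.22%. The lowest signal that counted as detected was 4.49 to 4.67 on the 8 arrays, so both group means lay at the background and no size of change is given. When all 25697 probes were fitted without the filter, Insr had an unadjusted limma p of 0.00212 and an adjusted p of 0.0562, at rank 969. An unadjusted p under 0.05 was found there for 3.17% of the probes that had missed the filter. After adjustment this fit called 3.53% of the 25697 probes. Over 15 alternatives to that fit, chosen after seeing the data, the adjusted p was 0.0315 to 0.211 and passed 0.05 in 2, which were no further background correction (0.0315) and the fit without TgC6hp55 replicate 3 (0.0483).

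Irs1, the other main docking protein, was detected on 0 of 4 TgC6hp55 arrays and 3 of 4 WT arrays. Its deposited intensities were 5, 5, 1 and 3 in TgC6hp55 livers 1 to 4, against 8, 8, 9 and 3 in WT livers 1 to 4. WT replicate 4 lay within the TgC6hp55 range and the other 3 WT livers above it. Log2 signals were 4.40 ± 0.075 in TgC6hp55 and 4.56 ± 0.12 in WT livers (SD, n = 4 each), both at the background, and no size of change is given. The probe did not pass in the fit without a filter (limma adjusted p = 0.394).

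The AKT kinases, the hub of the pathway, could not be compared on this array. The probe of Akt1 was detected on 1 of 4 TgC6hp55 arrays, replicate 3 with an intensity of 12, and 0 of 4 WT arrays. The other 7 livers had intensities of -1 to 5 in TgC6hp55 and -2 to 3 in WT livers. Akt2, the form that carries most of the insulin response in liver, has 2 probes, both detected on 0 of 8 arrays, with intensities of -4 to 1 in TgC6hp55 and -5 to 2 in WT livers. The probe of Gsk3a, the second GSK3 kinase, was detected on 2 of 4 TgC6hp55 arrays and 1 of 4 WT arrays, with intensities of 4, 8, 10 and 5 in TgC6hp55 livers 1 to 4, against 8, 5, 8 and 7 in WT livers 1 to 4. Over the 7 untested probes, 8 of 56 detection calls were made, and the group means lay between 4.19 and 4.56 on the log2 scale. An undetected probe shows that this probe did not rise above the control beads, and the transcript may still be present.

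**Figure D3:**
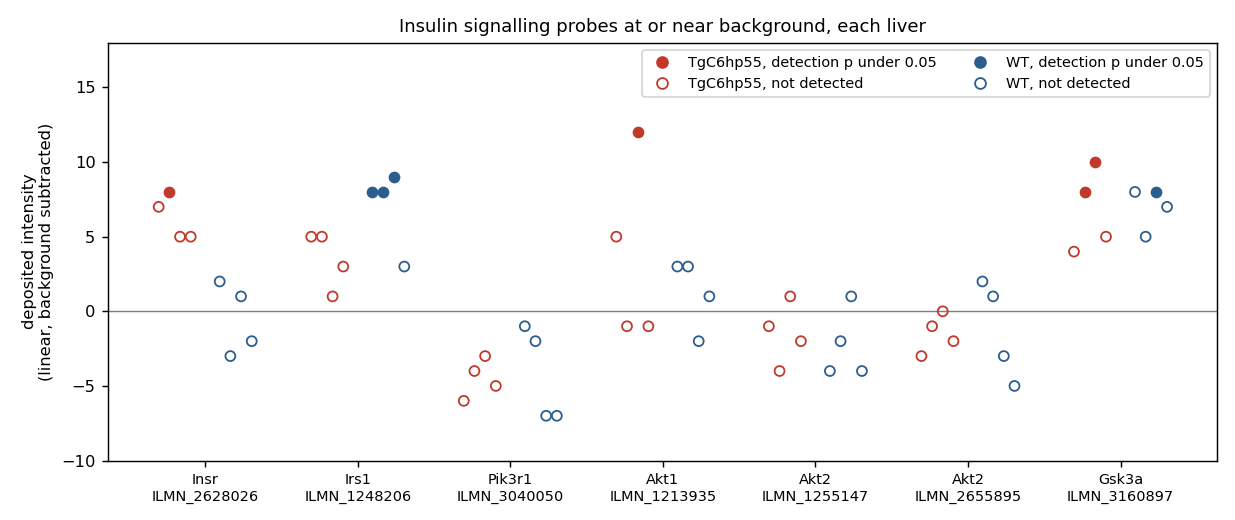
Deposited intensity on a linear scale, background subtracted (vertical axis), of the 7 probes that missed the detection filter, 1 circle per liver, TgC6hp55 (red) left of WT (blue) for each probe, filled where the detection p was under 0.05. All values lie between -7 and 12, and on the Insr probe every TgC6hp55 circle (5 to 8) is above every WT circle (-3 to 2).

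The genes around these components were read from 8 lists, with the brightest detected probe for each gene and without the 9 components themselves. Of 91 genes listed, 72 were on the array and 52 were tested. Adjusted over all 11100 probes, 1 was higher and 3 were lower in TgC6hp55 livers, which is 7.69% of the 52, where 10.4% of all tested probes passed (5.95% higher and 4.45% lower), and 11% of genes when each was held by 1 probe. The median difference of the 52 was -0.0021. An unadjusted limma p under 0.05 was found for 14 of the 52, where it was found for 23.5% of all tested probes.

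Upstream of PI3K, 0 of 4 tested receptor and adaptor genes passed. Sh2b1, an adaptor that enhances the receptor's activity, differed by 0.26 (limma adjusted p = 0.0945) on its brighter probe and by 0.04 (limma adjusted p = 0.911) on the other. The brighter probe passed without the filter (adjusted p = 0.0212) and in the plain unpaired test (adjusted p = 0.0101). Gab1, a docking protein related to the IRS proteins, differed by 0.26 (limma adjusted p = 0.126). In Gab1 and on the brighter Sh2b1 probe all 4 TgC6hp55 livers were above all 4 WT livers. Among all tested probes the groups separated, in either direction, in 16.1%. Sh2b1 had 7.75 to 7.87 in TgC6hp55 and 7.52 to 7.61 in WT livers. Gab1 had 7.82 to 7.94 in TgC6hp55 and 7.52 to 7.77 in WT livers. Among the PI3K subunits and PDK1, 0 of 5 passed. The genes with the smallest p, the catalytic subunit Pik3cd (limma adjusted p = 0.153) and the regulatory subunit Pik3r3 (limma adjusted p = 0.440), lay close to the background, and no size of change is given for them. The brightest probe of Pik3cd was detected on 4 of 4 TgC6hp55 and 2 of 4 WT arrays, and that of Pik3r3 on 2 of 4 TgC6hp55 and 3 of 4 WT arrays.

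In the AKT and mTOR list 0 of 11 tested genes were higher and 2 were lower in TgC6hp55 livers. Eif4ebp1, a repressor of translation that mTOR inactivates, had log2 signals of 9.06, 9.12, 9.04 and 9.12 in TgC6hp55 livers 1 to 4, against 9.47, 9.52, 9.63 and 9.55 in WT livers 1 to 4. It fell by 0.46 (standard error 0.092, limma adjusted p = 0.00745), with no overlap between the groups. Deptor, an inhibitor that binds mTOR, had 9.20, 8.96, 8.94 and 8.99 in TgC6hp55 livers 1 to 4, against 9.48, 9.40, 9.43 and 9.30 in WT livers 1 to 4. It fell by 0.38 (standard error 0.10, limma adjusted p = 0.0324), and its dimmer probe differed by -0.24 (limma adjusted p = 0.316). The Deptor call was lost without any of TgC6hp55 replicates 2 (adjusted p = 0.0840), 3 (0.0753) and 4 (0.0541) or WT replicates 1 (0.0865), 2 (0.0862) and 3 (0.0748).

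Among the brakes on insulin signalling, phosphatases and inhibitory adaptors for the most part, 0 of 13 tested genes were higher and 1 was lower in TgC6hp55 livers. This was Grb14, an adaptor that binds the activated insulin receptor and inhibits its kinase. Its brighter probe, ILMN_2625280, had log2 signals of 6.40, 6.80, 6.45 and 6.56 in TgC6hp55 livers 1 to 4, against 7.46, 6.93, 7.12 and 7.18 in WT livers 1 to 4. It fell by 0.62 (standard error 0.13, limma adjusted p = 0.0106), and the other probe, ILMN_2666181, fell by 0.57 (limma adjusted p = 0.0143). The groups did not overlap on either probe. In the plain unpaired test the brighter probe did not pass (adjusted p = 0.0626).

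The transcripts that insulin and FOXO1 control in liver gave 1 call. Of 4 tested FOXO1 targets other than Irs2, 0 passed. Insr is also on the list of FOXO1 targets but was not tested. Pck1, the gluconeogenic enzyme PEPCK, differed by -0.39 (limma adjusted p = 0.205), and Ppargc1a, a coactivator of gluconeogenesis, by 0.34 (adjusted p = 0.112). G6pc, the catalytic subunit of glucose-6-phosphatase, is named because its promoter is shown above, and differed by -0.11 (adjusted p = 0.817). Ppargc1a passed without TgC6hp55 replicate 3 (adjusted p = 0.0177). Of 8 insulin-induced genes of fatty acid synthesis, 1 was higher and 0 were lower. Elovl6, which elongates palmitate, had log2 signals of 9.55, 8.82, 9.74 and 9.29 in TgC6hp55 livers 1 to 4, against 8.40, 8.30, 8.69 and 8.64 in WT livers 1 to 4, with no overlap, and rose by 0.84 (standard error 0.18, limma adjusted p = 0.00998). It did not pass without the filter (adjusted p = 0.0507) or in the plain unpaired test (adjusted p = 0.0880). In the list of AKT substrates, 0 of 3 passed, with Gys2, the liver glycogen synthase, at -0.35 (limma adjusted p = 0.315) and Tbc1d1, a regulator of glucose transporter traffic, near the background, detected on 3 of 4 TgC6hp55 and 1 of 4 WT arrays (adjusted p = 0.468). In the RAS-MAPK arm 0 of 4 passed, with the GTPase Nras at 0.17 (limma adjusted p = 0.310) and the kinase Rps6ka3 at -0.17 (adjusted p = 0.421). Rps6ka3 was detected on 4 of 4 arrays of each genotype but lay close to the background, at 4.76 to 4.81 in TgC6hp55 and 4.80 to 5.24 in WT livers. In Nras too the groups did not overlap.

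Each of the 4 calls among the surrounding genes was lost with median scaling of the arrays, with adjusted p of 0.172 for Eif4ebp1, 0.296 for Deptor, 0.122 for Grb14 and 0.206 for Elovl6, though the direction stayed the same in all 18 alternatives run for each gene. That Grb14 and Elovl6 changed while none of the 5 tested component probes did was not itself tested as a difference between genes.

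**Figure D4:**
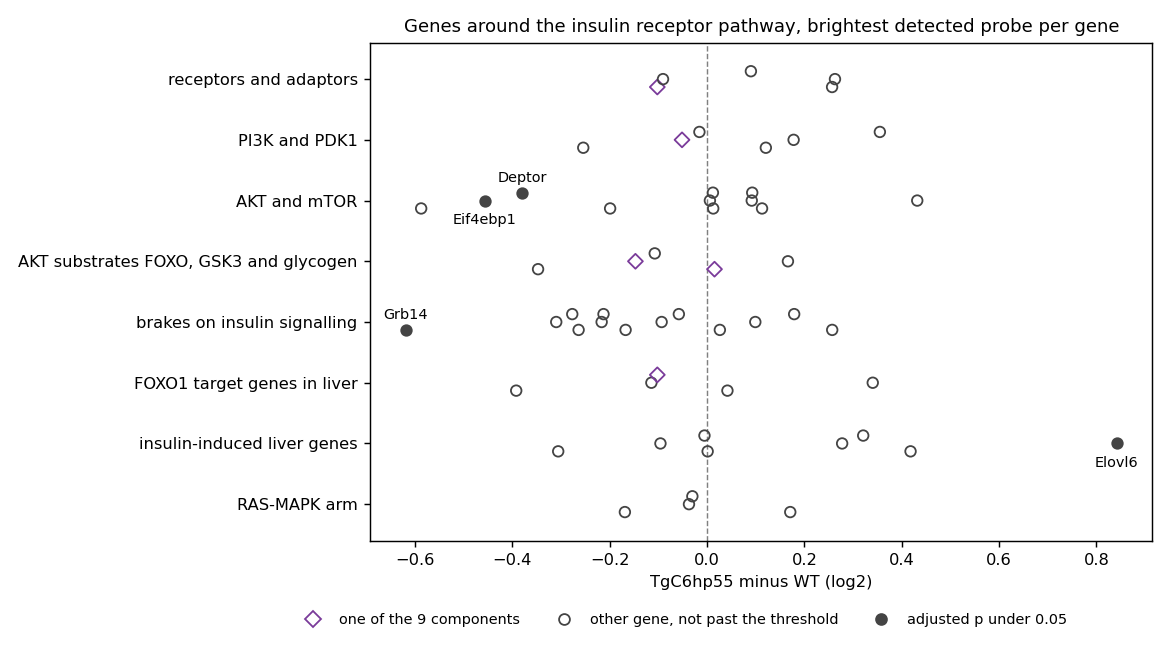
Difference TgC6hp55 minus WT on the log2 scale (horizontal axis) for the brightest detected probe of each gene in the 8 lists (rows), with purple diamonds for the insulin signalling components and circles for the other genes, filled where the limma adjusted p was under 0.05. Irs2 appears in 2 rows because it is on 2 lists. The 4 filled circles are Eif4ebp1 (-0.46), Deptor (-0.38), Grb14 (-0.62) and Elovl6 (0.84), and every diamond is open and lies between -0.15 and 0.02.

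The arrays had mean deposited intensities of 112 to 224 in TgC6hp55 and 167 to 179 in WT livers, with 10541 to 12011 probes detected in TgC6hp55 and 11005 to 11269 in WT livers. Log2 signals correlated at 0.981 to 0.991 within TgC6hp55, 0.986 to 0.991 within WT and 0.957 to 0.971 between the genotypes. Of the tested hepatocyte markers 0 of 6 passed, and their summed linear signal was 42494 to 46417 in TgC6hp55 and 44755 to 46854 in WT livers. Ttr, Apoa1 and Serpina1c, with group means of 13.5 to 13.9 on the log2 scale, made up most of this sum. Cps1 differed by -0.42 (limma adjusted p = 0.102) and Alb by 0.38 (adjusted p = 0.160). The Alb probe was dim, with means of 5.74 in TgC6hp55 and 5.37 in WT livers. Of the Kupffer cell markers 4 of 6 were higher (Adgre1, Marco, C1qa and C1qb), while Clec4f and Vsig4 did not pass. Marco was detected on 4 of 4 TgC6hp55 but 1 of 4 WT arrays, and its WT mean of 4.44 lay at the background. The summed signal of the 6 was 1135 to 1639 in TgC6hp55 and 248 to 1244 in WT livers. Of the sinusoidal endothelial markers 1 of 6 passed and was higher (Pecam1). Sums were 2445 to 2665 in TgC6hp55 and 1576 to 2395 in WT livers, without overlap. The 6 endothelial differences were all positive, 0.28 to 0.54, and the second Pecam1 probe differed by 0.17. An unadjusted limma p under 0.05 was found for 6 of 6 endothelial and 6 of 6 Kupffer cell markers, against 23.5% of all tested probes. Of the other markers tested, 0 of 5 for stellate cells, 0 of 1 for cholangiocytes and 0 of 1 for lymphocytes passed, and 0 adipocyte markers were tested. The 2 erythroid markers went opposite ways. Alas2 was lower (-2.59), while Hba-a1 differed by 0.65 and did not pass (limma adjusted p = 0.326). Their sums overlapped, at 3310 to 11340 in TgC6hp55 and 3889 to 6863 in WT livers. In whole liver, a change in the number of cells of a type and a change in RNA per cell cannot be told apart. The part of these shifts in the results above was not tested.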

How the data were processed

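Liver RNA of 4 TgC6hp55 and 4 WT mice was measured on 1 BeadChip array each. The authors deposited intensities on a linear scale from GenomeStudio 2011.1, background subtracted and without normalization between arrays, each with a detection p-value, and a second table of cubic spline normalized intensities. All 4 TgC6hp55 descriptions carry the same number, so columns were matched by the number in the titles. Of 25697 probes, 23978 had 1 gene symbol and 1719 had none. In R 4.3.3 with limma 3.58.1, the neqc function took the intensities through normexp background correction, with parameters from the detection p-values, the addition of 16, quantile normalization and log2. Probes with a detection p under 0.05 on at least 4 arrays (11100) were fitted with lmFit and eBayes (TgC6hp55 minus WT, two-sided, no covariate), with Benjamini-Hochberg adjustment over all of them and a threshold of 0.05. The plain unpaired test compared the same values probe by probe, as an alternative. SAM, which the study used with a fold over 1.7 and an FDR under 1%, was not run, and these thresholds were applied to the limma fit as an alternative. The number of arrays limits the precision. A limma p-value sets each difference against the spread between these livers, estimated with information from all probes in the fit. The components and the lists were chosen with earlier results of these data known. All probes of the components were named, and of each surrounding list the genes that passed, at most 4 by size, or the 2 with the smallest p. G6pc was added for its promoter. For the component with the smallest p, the 3 probes of other genes with the highest Pearson r were named.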

Additional observations from a re-analysis of the deposited data

Results flagged for a closer look

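In 3 of the 38 sets of 4 livers looked at (the tested component probes and the named surrounding genes, each genotype apart), 1 liver stood far from the other 3, with a gap to its nearest neighbour, relative to the whole range, above the 95% limit of Dixon's test. Chance alone flags about 1 in 20 sets. WT replicate 4 had a log2 signal of 6.23 on Pik3r1 probe ILMN_2473531, where the nearest of the other WT livers had 6.97, and of 6.54 on Pik3r1 probe ILMN_3114641, where the nearest had 7.22. TgC6hp55 replicate 3 had 4.81 on the Rps6ka3 probe, where the nearest of the other TgC6hp55 livers had 4.77, a gap that is small beside the difference of -0.17 between the genotypes. The TgC6hp55 values of this probe lay close to the lowest signal that counted as detected, 4.49 to 4.67 on the arrays.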

How the results depend on the processing

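None of the 5 tested component probes passed in any of 19 alternatives. Of these, only the fit without the filter held the 7 dim component probes, and none passed there. In the 15 further alternatives run for Insr without the filter, given above, it passed in 2. The 1154 probes called in all became 363 with median scaling (184 higher, 179 lower), 678 with the plain unpaired test, 364 with the methods' fold and FDR, and 757 to 1111 with 1 liver left out, the lowest without WT replicate 2. The count of 4 surrounding genes called (1 higher, 3 lower) became 0 with median scaling, 1 with the methods' fold and FDR, and 3 to 5 with 1 liver left out. The genes called were not always the same. Without TgC6hp55 replicate 2 or replicate 3, 2 were higher and 2 lower, and without WT replicate 3, 3 were higher and 2 lower. The causes were not tested. The replicate number as a block gave 1114 probes, 4 surrounding genes and 0 component probes. The labels tie same-numbered livers to nothing shared, so they were not paired. Their deviations from the group means correlated at 0.144, 0.118, 0.0112 and 0.114, in all but replicate 3 above the best match with another number. This is a hint from the data and not from the labels. The paper states that the mice in its experiments were siblings or had shared cages from weaning, without saying which of these livers that links. For 5 of the 9 genes the signal over background, and not the test, sets the limit.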

Other observations

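Some surrounding genes came close to the threshold without passing it, and they were chosen after their values were seen. Acaca, the acetyl-CoA carboxylase of fatty acid synthesis, differed by 0.42 between TgC6hp55 and WT livers (limma adjusted p = 0.0612). Mtor, the kinase of both mTOR complexes, differed by 0.43 (adjusted p = 0.0765), and Eif4ebp2, a translational repressor like Eif4ebp1, by -0.59 (adjusted p = 0.0980). In each of these the groups overlapped.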
